A study of Mus musculus with 6 samples.

Results

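The small nucleolar RNA host genes (Snhg genes) Snhg3, Snhg5, Snhg6, Snhg8, Snhg12, Snhg15, Snhg17 and Snhg18 were examined in the RNA of exosomes, small vesicles that cells release into their medium. Their transcripts were found by identifier: a row of the deposited table of non-coding RNA counts was taken when the mouse GENCODE annotation M21 (genome build GRCm38) gives it a gene name of Snhg followed by digits, and Snhg1, Snhg14 and Snhg20 were left out. This gave 43 transcripts of 8 genes among the 5880 rows of the table. A further 16 rows were small nucleolar RNAs (snoRNAs) whose genes lie inside these hosts on the same strand, under 15 gene symbols. Snhg9, Snhg10 and Snhg11 are not analysed here.

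Snhg genes are transcribed as long RNAs that are spliced, and the snoRNAs are cut out of their introns. The spliced host RNA of many such genes encodes no long protein and is short-lived, whereas the snoRNA is a stable part of a nucleolar protein complex. Box C/D snoRNAs guide the 2'-O-methylation of ribosomal RNA and carry a C box near the 5' end and a D box near the 3' end. Box H/ACA snoRNAs guide the conversion of uridine to pseudouridine and end shortly after an ACA box.

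The snoRNAs on which the comparison turned are shown with their positions in GRCm38 and their sequences 5' to 3' in the GENCODE M21 transcripts. In the H/ACA snoRNAs the capitals mark an ACA within 5 bases of the 3' end, and in the C/D snoRNAs the letters TGATGA of the C box and the last CTGA of the D box. Snora16a and Snora44 lie in the same host, Snhg12, and are shown because the former fell and the latter did not pass the test. Snora16a-201 lies on the plus strand at chr4:132309465-132309600, and Snora44 on the plus strand at chr4:132309941-132310069. The annotated Snora44 has no ACA within its last 5 bases.
Snora16a-201: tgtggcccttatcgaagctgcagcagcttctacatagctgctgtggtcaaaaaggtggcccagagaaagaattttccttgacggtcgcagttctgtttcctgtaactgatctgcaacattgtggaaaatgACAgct
Snora44: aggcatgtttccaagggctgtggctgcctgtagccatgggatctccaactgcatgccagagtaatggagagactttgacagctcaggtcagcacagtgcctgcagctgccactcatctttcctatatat
Snora24, in Snhg8, and Snord87, in Snhg6, are shown because they fell in the exosomes of neurons. Snora24 lies on the minus strand at chr3:123507937-123508066, and Snord87 on the minus strand at chr1:9942463-9942549.
Snora24: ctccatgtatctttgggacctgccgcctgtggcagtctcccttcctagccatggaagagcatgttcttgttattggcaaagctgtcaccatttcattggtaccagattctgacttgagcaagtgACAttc
Snord87: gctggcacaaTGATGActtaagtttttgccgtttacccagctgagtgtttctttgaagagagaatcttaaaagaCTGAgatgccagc
Snord50a and Snord50b, both in Snhg5, are shown because they had the highest counts and differ at 1 of 72 bases, C50A, counted from 1 at the 5' end with the base of Snord50a first. Snord50a lies on the minus strand at chr9:88521529-88521600, and Snord50b on the minus strand at chr9:88521797-88521868.
Snord50a: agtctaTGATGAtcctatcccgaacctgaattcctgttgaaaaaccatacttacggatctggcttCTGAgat
Snord50b: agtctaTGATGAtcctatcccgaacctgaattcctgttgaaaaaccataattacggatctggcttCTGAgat
Gm24411, in Snhg17, is shown because the isoform that holds it had many counts and Gm24411 itself had few. It lies on the minus strand at chr2:158356424-158356554.
Gm24411: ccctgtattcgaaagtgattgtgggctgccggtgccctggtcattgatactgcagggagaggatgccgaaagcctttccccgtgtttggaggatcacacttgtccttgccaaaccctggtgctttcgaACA

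The mouse line P19 is pluripotent and of teratocarcinoma origin. Exosomes were isolated by ultracentrifugation from serum-free medium of 2 kinds of culture. The first was the undifferentiated line (UD-P19), with replicates 1 to 3, and the second was neurons derived from it (P19N), with replicates 4, 5 and 6 from medium of day 8, 10 and 12. The neurons were made by 4 days of retinoic acid, and per the study's methods dividing cells were then inhibited with 5-fluorouridine and uridine. The labels name no genetic change in either group. The culture media of the groups also differed and cannot be told apart from the cell state. Each replicate was a separate exosome preparation and 1 small RNA library. Culture age cannot be told apart from replicate in P19N. The study calls the preparations of each group biological replicates. The sources used here do not say whether the P19N preparations came from separate cultures, so that p-values may measure technical spread only.

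Total counts were between 454499 and 887460 per library, and 3 libraries per group limit the precision of every value. Exosomal RNA is a bulk measurement: more RNA per exosome and a different mix of exosomes cannot be told apart. The neuronal list of non-coding RNAs had 10 of 12 genes in the table, with summed counts of 3, 82 and 16 in UD-P19 and 110, 89 and 44 in P19N, and no Mir9 or Mir124 hairpin, the defining ones, exceeded 3 counts in all. The pluripotency list had 6 of 13 genes in the table, with 26, 32 and 15 counts in UD-P19 and 5, 4 and 8 in P19N. Most of these came from Mir17hg, with 23, 19 and 15 counts in UD-P19 and 5, 3 and 5 in P19N. The other listed genes had at most 9 counts each over all libraries, and Lncenc1 had its 2 counts in P19N. A list of muscle microRNAs and H19 had no row, and 1 of 4 blood microRNAs had a row, with 1 count. Of the 82 neuronal counts of UD-P19 replicate 2, 65 came from Meg3, a maternally expressed long non-coding RNA, and without Meg3 the list had 1, 17 and 11 counts in UD-P19 and 52, 47 and 17 in P19N. P19N replicate 6 had the fewest in its group with or without Meg3. The part of these differences in the results below was not tested.

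The Snhg transcripts took up 0.294%, 0.182% and 0.270% of the counts in UD-P19 replicates 1, 2 and 3, and 0.154%, 0.155% and 0.282% in P19N replicates 4, 5 and 6. Scaled to counts per 1000000 of the TMM-scaled library (CPM), their sum was 3278, 1520 and 3402 CPM in UD-P19, with a mean of 2734 ± 1053 (SD, n = 3). In P19N it was 1610, 1562 and 2316 CPM, with a mean of 1829 ± 422 (SD, n = 3). The groups overlapped, since UD-P19 replicate 2 lay below all P19N libraries, and P19N replicate 6 was the highest of its group. Without replicate 2 the UD-P19 mean was 3340 ± 87.6 CPM (SD, n = 2), and without replicate 6 the P19N mean was 1586 ± 34.3 CPM (SD, n = 2).

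Of the 43 transcripts, 38 had at least 1 count in some library. Snhg5 held 3119 counts over the 6 libraries, Snhg12 held 2545 and Snhg17 held 2312. Snhg3 held 416 counts, Snhg8 340 and Snhg15 145. Snhg6 held 4 counts in 5 isoforms and Snhg18 held 1 count in its single isoform. Reads that matched 1 transcript only (unique counts) were 2108 of the 8882 counts, or 23.7%. Of these, 1952 belonged to the isoform Snhg17-209, and without Snhg17 the unique counts were 142 of 6570, or 2.16%. Over the whole table the unique share differed between the groups. It was 74.3%, 62.1% and 78.0% in UD-P19 replicates 1, 2 and 3, and 33.3%, 32.1% and 38.5% in P19N replicates 4, 5 and 6. The part of this difference in the fold changes of unique counts below was not tested.

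**Figure D1:**
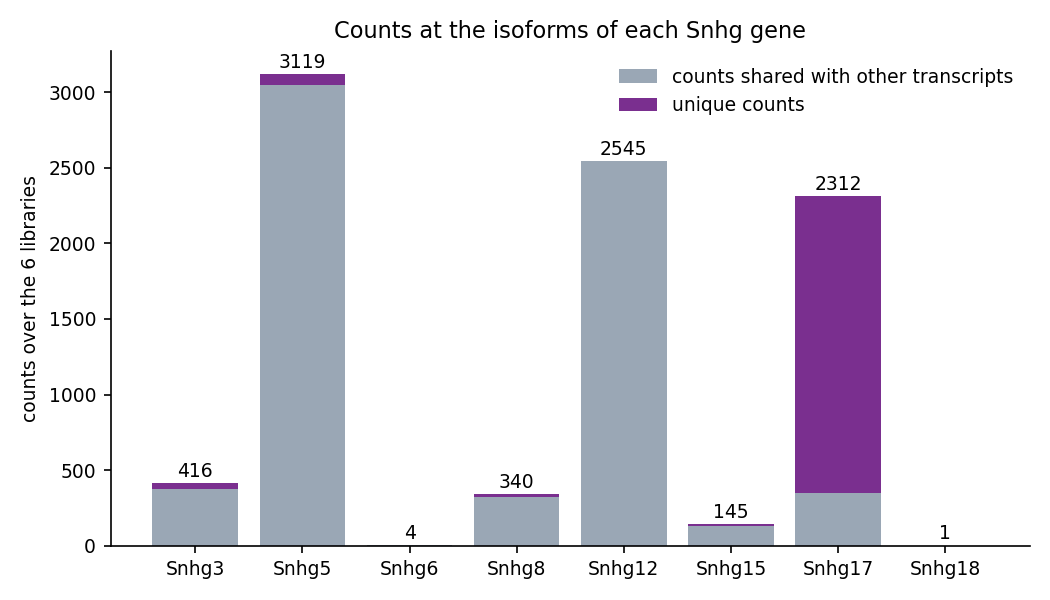
Counts summed over the 6 libraries (y axis, number of reads) at the isoforms of each Snhg gene, divided into unique counts and counts shared with other transcripts. Snhg5, Snhg12 and Snhg17 hold most counts, and of these Snhg17 is mostly unique (1966 of 2312) and the others mostly shared.

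Almost all counts lay at isoforms whose exons still contain a snoRNA. The 15 isoforms that hold a whole annotated snoRNA had 8401 counts, which is 94.6% of the counts of the 8 genes and 410 counts per kilobase of transcript. Another 2 isoforms hold a part of one and had 417 counts, of which Snhg3-202 had 413. The remaining 26 isoforms, whose exons contain no snoRNA, had 64 counts in all, or 3.66 per kilobase, and none of them had more than 13. A total of 15 counts was needed for a test, so that 16 of the 43 transcripts were tested: all 15 that hold a whole snoRNA, and Snhg3-202.

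Outside Snhg17 the count of an isoform matched that of the snoRNAs inside it. Snhg12-203 had 261 counts and Snora44, the snoRNA it holds, had 258. Snhg8-202 had 337 counts and Snora24 had 347, Snhg5-204 had 1384 and Snord50a 1304, and Snhg5-205 had 1721 and Snord50b 1609. Snora16a has 2 rows that differ by 1 base in length, with 250 and 249 counts, and their mean was taken as its count. Over the 12 isoforms of Snhg5, Snhg8, Snhg12 and Snhg15 the ratio of the isoform's counts to those of its snoRNAs was between 0.971 for Snhg8-202 and 1.22 for Snhg12-201. All counts of Snora16a, Snora44, Snora61, Snord99, Snora9, Snora24, Snord50a and Snord50b were shared ones. The rows of such a set therefore hold parts of the same reads and are not separate measurements, as do copies elsewhere: Gm24463 (plus strand, chr9:89075336-89075407) is identical to Snord50a and had 1286 counts, and Gm26135 (minus strand, chr9:88857693-88857764) is identical to Snord50b and had 1611.

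**Figure D2:**
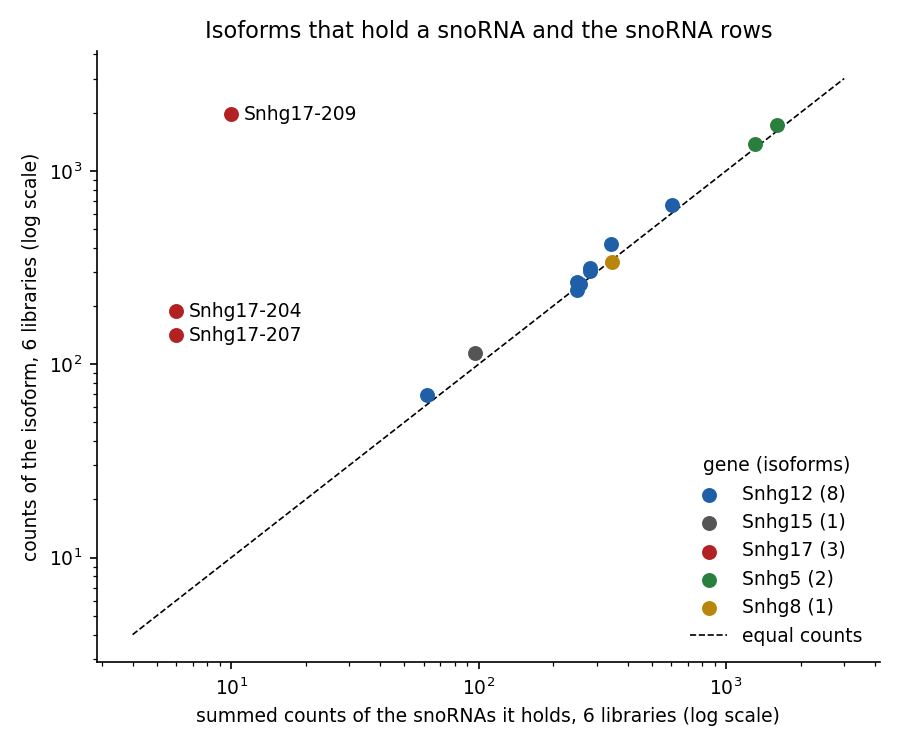
Counts of each of the 15 isoforms that hold a whole snoRNA (y axis, log scale) against the summed counts of the snoRNAs it holds (x axis, log scale, with the mean of its 2 rows for Snora16a), both over the 6 libraries, with a dashed line of equal counts. The 12 isoforms of Snhg5, Snhg8, Snhg12 and Snhg15 lie near the line, and the 3 of Snhg17 lie far above it, with 1971 counts against 10 for Snhg17-209.

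The exons of no listed isoform hold Snord87, Snord123, Snora73a or Snora73b whole, and most counts of these snoRNAs were unique except for Snora73a. Snord87, inside Snhg6, had 606 counts, all of them unique, beside the 4 counts of the Snhg6 isoforms. Snord123, inside Snhg18, had 21 counts, all unique, beside 1 count of Snhg18-201. Snora73b, inside Snhg3, had 535 counts, of which 523 were unique. Snora73a, also inside Snhg3, shares a part of its sequence with Snhg3-202 and had 634 counts, of which 279 (44.0%) were unique.

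P19N and UD-P19 exosomes were compared with edgeR's quasi-likelihood F test fitted on the whole table, with Benjamini-Hochberg adjustment over 1286 tested transcripts and a call at an adjusted p of at most 0.05. Across all rows tested, 309 (24%) were called, 193 (15%) of them higher and 116 (9.02%) lower in P19N. Of the 16 Snhg isoforms tested, 3 were lower, 0 were higher and 13 did not pass, and 5 of the 16 (31.2%) had an unadjusted p under 0.05, against 494 of all 1286 (38.4%). The DESeq2 Wald test called 5 isoforms lower and 0 higher, beside 195 rows lower and 180 higher in the whole table. The exact test of edgeR called 3 isoforms lower and 0 higher, beside 132 rows lower and 211 higher in the whole table. In the quasi-likelihood test the isoforms' median log2 fold change was -0.86, with 13 negative and 3 positive values, against 0.21 for all tested transcripts. Of the 16 isoforms 8 belong to Snhg12 and 3 to Snhg17. Isoforms that share reads are not separate measurements, so that this median and these signs do not count loci. Among the 13 rows of contained snoRNAs that were tested, 4 were lower and 0 higher, with a median of -0.69. The 3 isoforms share reads with 3 of these 4 rows, so that both counts describe the same loci: Snhg8 with Snora24, and Snhg12 with Snora16a. With both UD-P19 replicate 2 and P19N replicate 6 left out, chosen after their values were seen, another 8 isoforms and 3 snoRNA rows passed. These libraries had the lowest UD-P19 and the highest P19N summed Snhg level, so that this choice narrows the spread and favours calls. The added calls are therefore no separate support. Snhg12-201, Snhg12-204, Snhg12-207, Snhg12-209, Snhg17-204, Snhg17-207, Snhg17-209 and Snora61 were then lower, and Snhg3-202 (log2 fold change 1.13, adjusted p = 0.00357), Snora73b (0.79, adjusted p = 0.0220) and Snord50a (0.58, adjusted p = 0.0355) higher, in a fit that called 652 rows in all. The values of the groups did not overlap in the 6 libraries for 4 of the 16 isoforms and 5 of the 13 snoRNA rows, beside 540 (42%) of all tested transcripts.

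**Figure D3:**
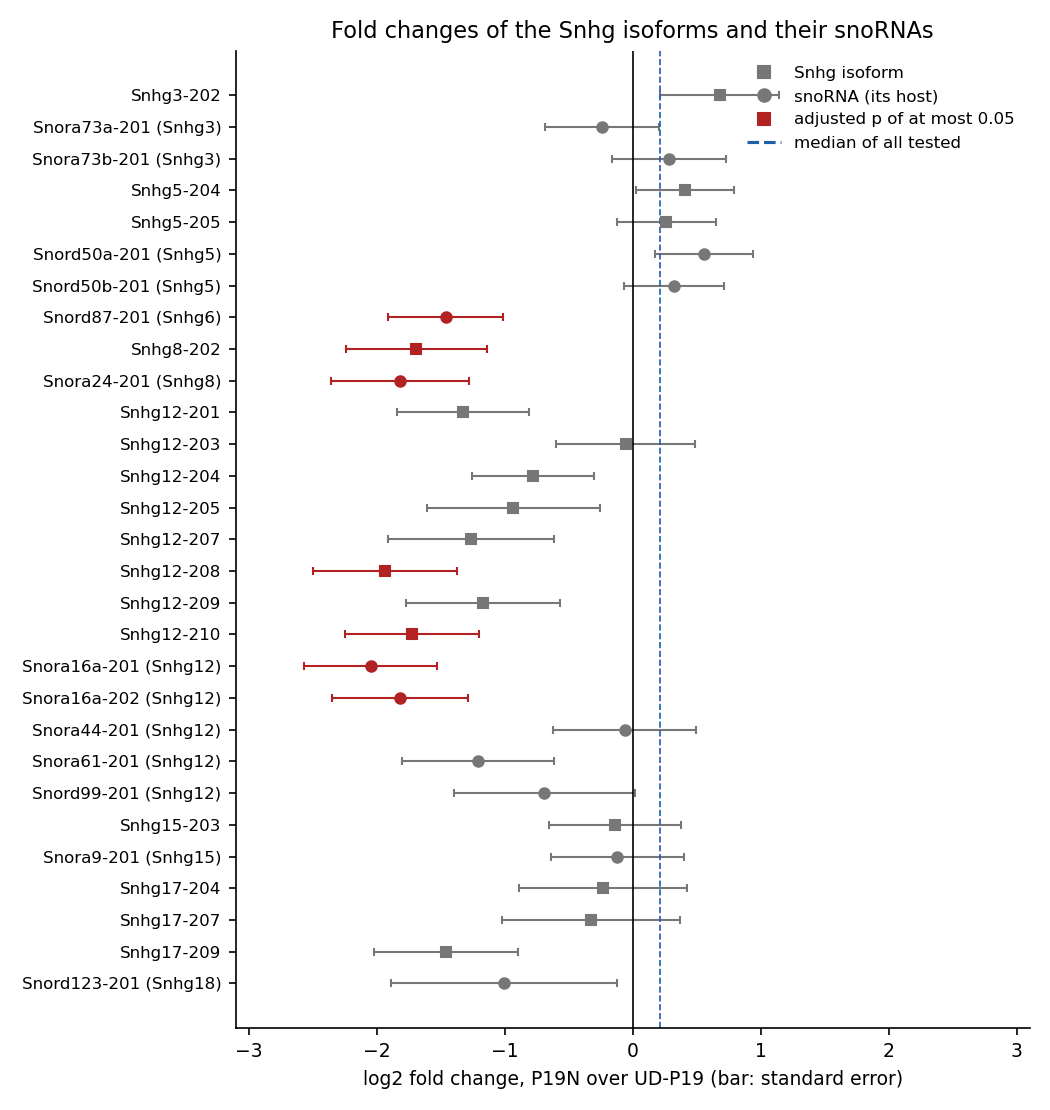
Log2 fold change of P19N over UD-P19 (x axis) with its standard error (bar) for the 16 tested isoforms (squares) and the 13 tested snoRNA rows (circles, host in brackets), in red where the adjusted p was at most 0.05, with a dashed line at the median of all tested transcripts. The red points are Snhg8-202 and Snora24, Snhg12-208 and Snhg12-210 with both Snora16a rows, and Snord87, all below 0.

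At Snhg8, host of the H/ACA snoRNA Snora24, that snoRNA and the isoform that spans it were lower in P19N exosomes. Of the 337 counts of that isoform 321 were shared ones, so that the host RNA was hardly measured apart from Snora24. Human SNORA24 guides pseudouridylation of 18S ribosomal RNA. Snora24 had 174, 75.8 and 194 CPM in UD-P19 replicates 1, 2 and 3, and 30.6, 29.1 and 65.6 CPM in P19N replicates 4, 5 and 6. All P19N libraries were below all UD-P19 libraries, with UD-P19 replicate 2 the lowest of its group and P19N replicate 6 the highest of its own. Its log2 fold change was -1.82 (SE 0.535, adjusted p = 0.0203). The single-exon isoform Snhg8-202, which spans Snora24, had 149.8, 67.5 and 200.2 CPM in UD-P19, and 34.2, 26.5 and 68.4 CPM in P19N. Here UD-P19 replicate 2 lay just below P19N replicate 6, and the log2 fold change was -1.69 (SE 0.548, adjusted p = 0.0329). The spliced isoforms Snhg8-201 and Snhg8-203 had 3 and 0 counts. The call of Snhg8-202 was lost without UD-P19 replicate 3 (adjusted p = 0.106), P19N replicate 4 (0.108) or P19N replicate 5 (0.134), and that of Snora24 without the same libraries (0.0604, 0.0877 and 0.0964). It was also lost for Snhg8-202 with TMMwsp scaling (adjusted p = 0.0559), with library totals alone (0.0761) and in unique counts (0.349).

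Snhg6, host of the C/D snoRNA Snord87, was represented by that snoRNA. SNORD87 guides a 2'-O-methylation of 28S ribosomal RNA. Snord87 had 273, 196 and 228 CPM in UD-P19, and 63.6, 66.1 and 123 CPM in P19N. The groups did not overlap: UD-P19 libraries averaged 232 ± 38.7 CPM and P19N libraries 84.2 ± 33.4 CPM (SD, n = 3 each). Its log2 fold change was -1.46 (SE 0.449, adjusted p = 0.0248). All its counts were unique, and it was also called in the fit of unique counts alone, in which 24.9% of 510 transcripts were called, with a log2 fold change of -1.30 (SE 0.418, adjusted p = 0.0430). The 5 isoforms of Snhg6 had at most 1 count each and were not tested. The call was lost without P19N replicate 4 (adjusted p = 0.106) or 5 (0.105), with no count filter (0.0540) and with library totals alone (0.0604).

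Snhg12 holds 4 snoRNAs, the H/ACA snoRNAs Snora16a, Snora44 and Snora61 and the C/D snoRNA Snord99. Both Snora16a rows were lower in P19N, and the rows of Snora44, Snora61 and Snord99 did not pass the test. Snora16a-201 had 135, 65.2 and 131 CPM in UD-P19, and 25.9, 18.5 and 34.9 CPM in P19N. The groups did not overlap, and the log2 fold change was -2.05 (SE 0.519, adjusted p = 0.00891). This call held under all 18 alternatives that left out at most 1 library and could test this row, with adjusted p-values between 0.000296 and 0.0479. Unique counts were not among them, since all counts of Snora16a were shared ones. Snora16a is listed a second time with 1 more base at the 5' end, as Snora16a-202 (log2 fold change -1.82, SE 0.532, adjusted p = 0.0197), and that call was lost without P19N replicate 4 (adjusted p = 0.0877) or 5 (0.0964). Of the Snhg12 isoforms, Snhg12-208 and Snhg12-210 hold Snora16a and no other whole snoRNA, and the former ends inside Snora61. Snhg12-208 had 111, 68.7 and 131 CPM in UD-P19, and 20.03, 13.2 and 47.4 CPM in P19N (log2 fold change -1.94, SE 0.563, adjusted p = 0.0191). Snhg12-210 had 135, 74.7 and 119 CPM in UD-P19, and 23.6, 22.5 and 53.0 CPM in P19N (log2 fold change -1.72, SE 0.524, adjusted p = 0.0235). In both isoforms every P19N library was below every UD-P19 library. Without P19N replicate 4 or 5 the adjusted p-values rose to 0.0877 and 0.0965 for Snhg12-208 and to 0.0983 and 0.108 for Snhg12-210, and Snhg12-208 also lost its call without UD-P19 replicate 3 (0.0517) and Snhg12-210 with library totals alone (0.0601).

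Snora44, which lies downstream of Snora16a in the same host, had 81.0, 21.3 and 99.3 CPM in UD-P19, and 61.3, 52.9 and 76.7 CPM in P19N. UD-P19 replicate 2 was the lowest of the 6 libraries and the other UD-P19 libraries were the highest. The log2 fold change was -0.06 (SE 0.557, adjusted p = 0.943), and that of Snhg12-203, which holds Snora44 alone, was -0.05 (SE 0.543, adjusted p = 0.949). Over the alternatives that left out at most 1 library these lay on both sides of 0, between -0.27 and 0.21 for Snora44 and between -0.26 and 0.25 for Snhg12-203, and neither was called under any of them.

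Snora61 had 159.6, 48.6 and 117 CPM in UD-P19, and 29.5, 23.8 and 86.5 CPM in P19N. The groups overlapped through UD-P19 replicate 2 and P19N replicate 6, and the log2 fold change was -1.21 (SE 0.595, adjusted p = 0.144). The isoforms that hold Snora61 alone had log2 fold changes of -1.26 (Snhg12-207, adjusted p = 0.157) and -1.17 (Snhg12-209, adjusted p = 0.160). Without P19N replicate 6 these 3 rows passed, with adjusted p-values of 0.0428, 0.0286 and 0.0331. Snhg12-201, which holds Snora61 and Snord99, had 226, 115 and 141 CPM in UD-P19, and 37.7, 47.6 and 106 CPM in P19N. Its groups did not overlap, and its log2 fold change of -1.33 (SE 0.515) had an adjusted p of 0.0749. It passed in 5 of 17 alternatives that left out at most 1 library, with adjusted p-values of 0.0420 without UD-P19 replicate 2, 0.0287 without P19N replicate 6, 0.0490 with a total of at least 5 counts, 0.0288 in the DESeq2 Wald test and 0.0425 in exact counts. Snhg12-204, which holds Snora44, Snora61 and Snord99, had a log2 fold change of -0.78 (SE 0.477, adjusted p = 0.236). Snhg12-202 and Snhg12-206, which hold no snoRNA, had 1 count each.

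Snord99, a guide for 2'-O-methylation of 28S ribosomal RNA, had 62 counts. It had 2, 30 and 5 counts in UD-P19, and 12, 8 and 5 in P19N. UD-P19 replicate 2 held most UD-P19 counts of Snord99, while in CPM it was the lowest UD-P19 library for Snora16a, Snora44 and Snora61. The log2 fold change of Snord99 was -0.69 (SE 0.708, adjusted p = 0.485), and that of Snhg12-205, which holds Snord99 alone, was -0.93 (SE 0.674, adjusted p = 0.318). Without UD-P19 replicate 2 these turned to 0.80 and 0.20.

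Since the ratio of 2 counts within a library does not depend on scaling, the rows of Snhg12 that hold a single snoRNA were summed by snoRNA and set against each other, a comparison chosen after the values were seen. Snora16a had 4 such rows, Snora44 had 2, Snora61 had 3 and Snord99 had 2, and isoforms with several snoRNAs were left out. The size of a ratio thus depends on these numbers of rows, and the groups were compared in the same rows. The Snora16a rows had 3.38, 6.08 and 2.39 times the counts of the Snora44 rows in UD-P19 replicates 1, 2 and 3. In P19N replicates 4, 5 and 6 they had 0.752, 0.696 and 1.18 times the counts of the Snora44 rows. The groups did not overlap, and the mean log2 ratio was 1.87 ± 0.680 (SD, n = 3) in UD-P19 and -0.23 ± 0.411 (SD, n = 3) in P19N, a difference of -2.10. The exact two-sided permutation test gave p = 0.1, the smallest that 3 libraries against 3 allow, and 0.45 after adjustment over the 6 pairs of snoRNAs. In the other 5 pairs the groups overlapped. The ratio of Snora44 to Snora61 rows was 0.290, 0.289 and 0.573 in UD-P19, and 1.42, 1.52 and 0.531 in P19N (exact permutation test, p = 0.2).

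**Figure D4:**
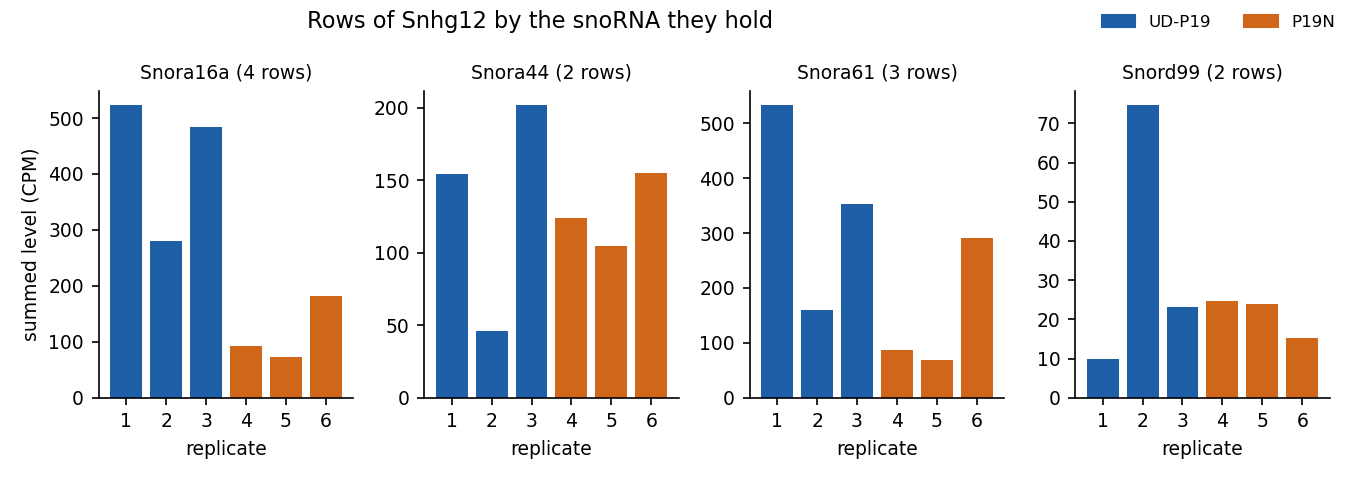
Summed level in CPM (y axis of each panel, with its own scale) of the Snhg12 rows that hold a single snoRNA, by replicate (x axis, UD-P19 1 to 3, P19N 4 to 6), 1 panel per snoRNA. Snora16a is lower in all P19N libraries, Snora44 is not, Snora61 is high again in replicate 6 with 292 CPM, and Snord99 is highest in replicate 2 with 74.7 CPM.

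Snhg17 differed from the other hosts in the rows at which its reads were counted. It holds the H/ACA snoRNAs Gm23925, Gm24411 and Gm26003, which had 6, 10 and 0 counts. Snhg17-209, a single-exon isoform of 3144 bases on the minus strand at chr2:158353700-158356843 that spans Gm24411, had 1971 counts, of which 1952 were unique. These reads thus lay in Snhg17-209 but were not counted at Gm24411 or at any other row of the table. Snhg17-204 had 189 counts and Snhg17-207 had 142, of which 14 and 0 were unique, beside the 6 counts of Gm23925, the snoRNA that both hold. The annotated Gm23925, Gm24411 and Gm26003 end with the letters ACA themselves, with 0 bases after them, whereas Snora16a, Snora61, Snora9, Snora24, Snora73a and Snora73b have 3 bases after the ACA. Of the 259 snoRNA and scaRNA rows of 100 to 220 bases in the table, 61.0% had an ACA with exactly 3 bases after it on the transcript strand, and 2.32% ended with ACA. Whether the annotated ends bear on where reads were counted was not tested, since positions of reads within a transcript were not used here.

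In levels, Snhg17-209 had 1031, 181 and 1208 CPM in UD-P19, and 217, 227 and 435 CPM in P19N. It was high in UD-P19 replicates 1 and 3, while UD-P19 replicate 2 was the lowest of all 6 libraries. The log2 fold change was -1.46 (SE 0.564), which did not pass (adjusted p = 0.0739), and in unique counts it was -1.15 (SE 0.547, adjusted p = 0.142). Without UD-P19 replicate 2 the adjusted p was 0.00103 with a log2 fold change of -1.65, and over the 18 alternatives that left out at most 1 library the adjusted p was between 0.00103 and 0.221, with 6 calls. Snhg17-204 and Snhg17-207 had log2 fold changes of -0.23 (SE 0.654, adjusted p = 0.821) and -0.33 (SE 0.697, adjusted p = 0.759). Leaving out single libraries moved these between -0.73 and 0.04 and between -1.06 and 0.10, the ends being without P19N replicate 6 and without UD-P19 replicate 1, and neither was called. Both were lowest in UD-P19 replicate 2, at 10.7 and 8.29 CPM, and both were higher in P19N replicate 6, at 73.9 and 61.4 CPM, than in replicates 4 and 5. The spliced isoforms Snhg17-201, Snhg17-202, Snhg17-203 and Snhg17-205 had 2, 1, 2 and 1 counts, and Snhg17-206 had 0. Snhg17-208, which holds a part of Gm26003, had 4.

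Snhg5, the host of the paired C/D snoRNAs Snord50a and Snord50b, which guide methylation of 28S ribosomal RNA, showed no call in either direction. Snord50a had 219, 238 and 285 CPM in UD-P19, and 344, 373 and 374 CPM in P19N. All P19N libraries lay above all UD-P19 libraries, and the log2 fold change of 0.56 (SE 0.384) did not pass (adjusted p = 0.294). Snhg5-204, which holds Snord50a, had 228, 308 and 295 CPM in UD-P19, and 348, 366 and 392 CPM in P19N, again without overlap (log2 fold change 0.41, SE 0.383, adjusted p = 0.444). Snord50b had 346, 246 and 439 CPM in UD-P19, and 418, 431 and 438 CPM in P19N. There UD-P19 replicate 3 was level with the P19N libraries, and the log2 fold change was 0.32 (SE 0.390, adjusted p = 0.566). Snhg5-205, which holds Snord50b, had a log2 fold change of 0.26 (SE 0.386, adjusted p = 0.643). The identical copies, which hold parts of the same reads, had log2 fold changes of 0.56 (Gm24463, adjusted p = 0.293) and 0.43 (Gm26135, adjusted p = 0.440).

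Of the 72 unique counts of Snhg5, 65 lay in UD-P19 replicate 2. Snhg5-204 had 69 unique counts, 65 of them in UD-P19 replicate 2, 2 in UD-P19 replicate 3 and 2 in P19N replicate 6, and 0 in each of the other 3 libraries. Snhg5-205 had 1 unique count. In unique counts the log2 fold change of Snhg5-204 was -4.96 (SE 1.72, adjusted p = 0.0571), which is opposite in sign to that of all its counts and rests on that library. The isoforms Snhg5-201, Snhg5-202, Snhg5-203 and Snhg5-206, which hold no snoRNA, had 5, 1, 1 and 7 counts.

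Snhg3, host of the H/ACA snoRNAs Snora73a and Snora73b (U17), which take part in the processing of the precursor of 18S ribosomal RNA, had its counts at Snhg3-202. This isoform begins inside Snora73a and shares bases 47 to 205 of it, that is 159 bases. Snhg3-202 had 63.8, 87.7 and 64.5 CPM in UD-P19, and 157, 109.8 and 80.9 CPM in P19N. P19N replicate 6 lay below UD-P19 replicate 2, and the log2 fold change was 0.68 (SE 0.465, adjusted p = 0.291). In its 39 unique counts the direction turned, with a log2 fold change of -1.12 (SE 0.891, adjusted p = 0.385), and 19 of them lay in UD-P19 replicate 2, beside 3 and 3 in the other UD-P19 libraries and 9, 4 and 1 in P19N. Snora73a had 236, 117 and 162 CPM in UD-P19, and 181, 145 and 107 CPM in P19N (log2 fold change -0.24, SE 0.444, adjusted p = 0.719). Of its 634 counts 279 were unique, and in these the log2 fold change was -1.26 (SE 0.454, adjusted p = 0.0651), whereas in exact counts it turned to 0.79 (adjusted p = 0.133). Snora73b differs from Snora73a at 7 of 205 bases. It had 98.2, 146 and 89.4 CPM in UD-P19, and 149.6, 157 and 100.4 CPM in P19N (log2 fold change 0.28, SE 0.445, adjusted p = 0.663). The groups overlapped for both snoRNAs, and leaving out single libraries moved the log2 fold change of Snora73b between -0.10 and 0.71. The other Snhg3 isoforms had at most 2 counts, and reads of Gm17300, annotated on the opposite strand, came to 1 count.

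Snhg15, host of the H/ACA snoRNA Snora9, did not separate the groups. Snhg15-203, which holds Snora9, had 36.8, 20.1 and 33.1 CPM in UD-P19, and 22.4, 26.5 and 32.1 CPM in P19N (log2 fold change -0.14, SE 0.516, adjusted p = 0.867). Snora9 had 29.5, 17.8 and 28.1 CPM in UD-P19, and 24.7, 19.8 and 23.7 CPM in P19N (log2 fold change -0.12, SE 0.520, adjusted p = 0.881). Both turned slightly positive with library totals alone, to 0.06 and 0.05. Snora9, but not Snhg15-203, was also positive in exact counts (0.09) and with edgeR's own count filter, filterByExpr (0.02). The spliced isoforms Snhg15-201, Snhg15-202 and Snhg15-204 had 13, 11 and 7 counts, which for the first 2 is more than any other isoform without a snoRNA had. Snhg18, host of the C/D snoRNA Snord123, was near the limit of detection. Snord123 had 1, 4 and 8 counts in UD-P19 and 5, 2 and 1 in P19N. This difference did not pass (log2 fold change -1.004, SE 0.881, adjusted p = 0.411).

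The hosts were also compared with their rows summed, so that the division of shared reads among the summed rows has no effect. With the isoforms of each gene summed, Snhg8 was lower (log2 fold change -1.67, SE 0.544, adjusted p = 0.0342), in a fit that called 24.1% of 1276 rows. The 5 other genes that reached 15 counts did not pass. These sums leave out the counts at the snoRNA rows and copies that share reads with the isoforms. No gene was called with TMMwsp scaling, with library totals alone or in unique counts. The same held without UD-P19 replicate 3, P19N replicate 4 or P19N replicate 5. With the isoforms, the contained snoRNAs and the Snord50 copies summed to 1 row per locus, an alternative added after the data were seen, 24.1% of 1263 rows were called. Of the 8 loci, Snhg8 (log2 fold change -1.74, SE 0.508, adjusted p = 0.0188) and Snhg6 (-1.46, SE 0.451, adjusted p = 0.0247) were lower. The Snhg12 locus had a log2 fold change of -1.12 (SE 0.431, adjusted p = 0.0703) and the Snhg17 locus one of -1.25 (SE 0.564, adjusted p = 0.110). Snhg18 had -1.11 (SE 0.883, adjusted p = 0.359). The Snhg5 locus had 0.41 (SE 0.334, adjusted p = 0.365), Snhg3 had 0.16 (SE 0.395, adjusted p = 0.795) and Snhg15 had 0.02 (SE 0.468, adjusted p = 0.972). Without P19N replicate 4, or without P19N replicate 5, no locus was called.

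**Figure D5:**
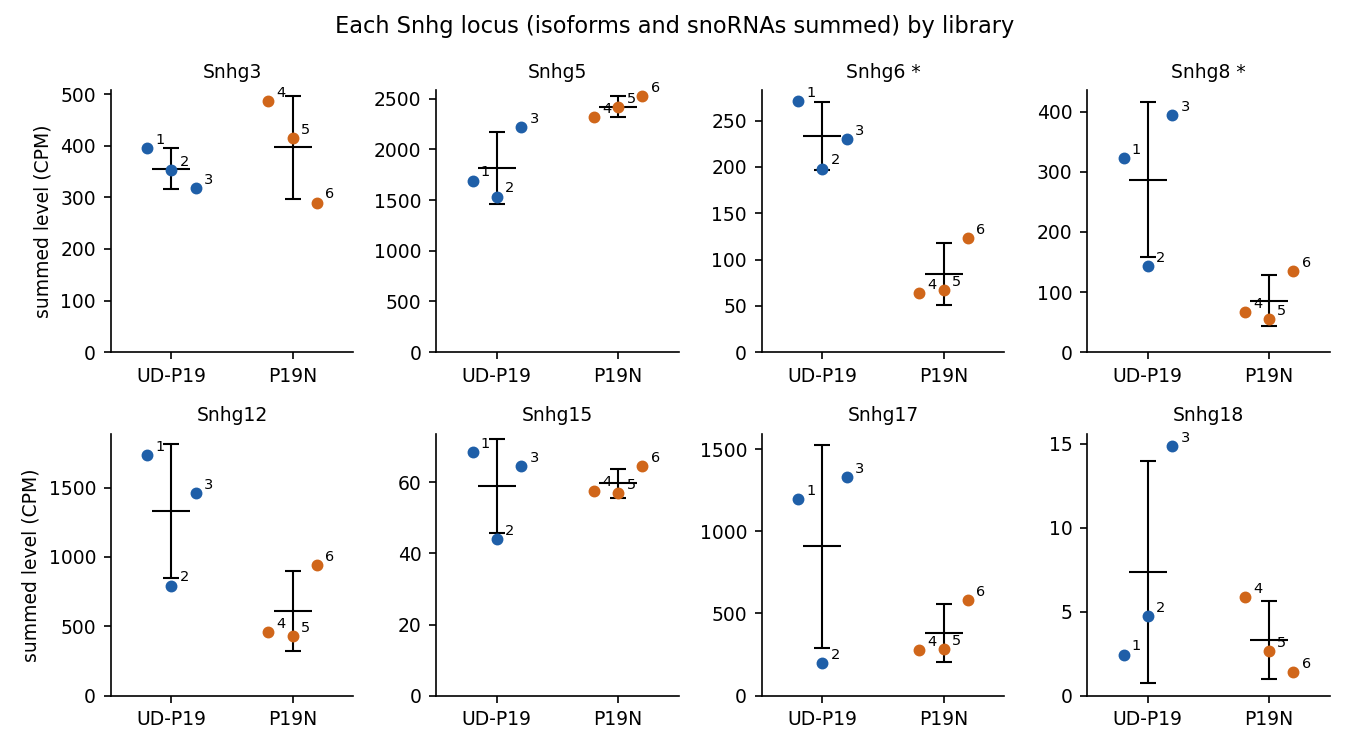
Summed level of each locus (isoforms, contained snoRNAs and Snord50 copies) in CPM (y axis, with its own scale per panel) for the 3 UD-P19 and the 3 P19N libraries, numbered by replicate, with the mean (line) and SD (bar, n = 3), and a star where the adjusted p was at most 0.05. Snhg6 and Snhg8 carry the star, and in Snhg12 and Snhg17 replicate 2 lies low and replicate 6 high within its group.

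Of the other snoRNA host genes in the table, Gas5 had 16267 counts and Snhg1 had 30255, of which 0.23% and 0.27% were unique. Beside the 15% of all tested rows that were higher and the 9.02% that were lower, 5 of 14 tested Gas5 isoforms were lower and 0 higher, with a median log2 fold change of -1.35. Of 15 Snhg1 isoforms 1 was higher and 0 lower, with a median of -0.65, and of 8 Snhg14 isoforms 2 were higher and 0 lower, with a median of -0.28. Both tested Snhg20 isoforms were higher, and the tested isoforms of Zfas1 (3), Dancr (3) and Rian (4) did not pass. Epb41l4aos had 4 counts in all and was not tested. Whether these hosts differ from the 8 genes described was not tested.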

How the data were processed

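RNA of exosomes from 3 UD-P19 and 3 P19N preparations was sequenced as small RNA libraries. In CLC Genomics Workbench, with its default settings, the authors joined the trimmed read pairs and assigned them to mouse non-coding RNA transcripts (GRCm38), and they deposited 1 count per transcript and library, not normalized. The treatment of reads with more than 1 matching transcript is not given in the sources used here. Rows of identical sequence held similar, unequal counts. The deposited columns named unique and exact are undefined there, and were taken to count reads with a single matching transcript and reads free of mismatches. Identical copies held 0 unique counts, which bears on the former, and the latter was assumed. Columns with the authors' group means, fold changes and p-values were not used.

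Rows were matched by identifier to GENCODE release 21 (5773 of 5880). Isoforms were sorted by whether 1 exon holds a whole snoRNA. The fit used edgeR 4.0.16 (R 4.3.3) and its quasi-likelihood F test on rows with at least 15 counts over the libraries, with TMM scaling, no covariate and Benjamini-Hochberg adjustment at 0.05, and standard errors come from the same fit. The fit was also run on simulated data, and no result given here rests on that run. CPM are counts per 1000000 of the scaled library. DESeq2 1.42.0, Python 3.11.15, pandas 2.3.3, scipy 1.17.1 and matplotlib 3.10.9 were also used. Total counts of 454499 to 887460 per library are numbers of reads, and PCR copies among them were not removed. Alternatives were other filters, scalings, tests, thresholds and counts, summed isoforms, leaving out Gm42418, the most abundant row, and leaving out libraries. The values named are those of every isoform and contained snoRNA that passed the filter and of the leading isoform of each other gene, and Gm23925, Gm24411, Gm26003, Gm24463, Gm26135, Gm17300 and the remaining isoforms were added. The genes and lists were chosen with earlier results of these data known.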

Additional observations from a re-analysis of the deposited data

How the results depend on the processing

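No paired analysis was possible because the groups share no replicate number. As reported, 3 Snhg isoforms, 4 snoRNA rows, 1 gene with summed isoforms, 2 summed loci and 309 of all transcripts were called. All calls among isoforms and snoRNAs were of lower level in P19N in every alternative run except 1: with UD-P19 replicate 2 and P19N replicate 6 both left out, an alternative added after the data were seen, 11 isoforms (1 higher), 7 snoRNA rows (2 higher) and 652 transcripts in all were called. With a total of at least 5 counts, 5 isoforms, 3 genes and 4 loci were called, beside 397 transcripts in all. TMMwsp scaling gave 0 genes and 292 transcripts in all, and library totals alone gave 1 isoform, 0 genes, 1 locus and 285 transcripts in all. DESeq2's Wald test called 5 isoforms, 2 genes and 375 transcripts in all, and exact counts gave 5 isoforms, 2 genes and 362 transcripts in all. Of all calls 193 were higher and 116 lower with TMM scaling, whereas DESeq2 size factors gave 178 higher and 189 lower, with 3 isoforms called, all lower. Unique counts gave 0 isoforms, 1 snoRNA row (Snord87), 0 genes, 1 locus and 127 transcripts in all, from fewer rows tested. At an adjusted p of at most 0.01, 0 isoforms, 1 snoRNA row (Snora16a-201), 0 genes, 0 loci and 182 transcripts in all remained. With 1 library left out the counts ranged from 0 to 6 isoforms, 1 to 5 snoRNA rows, 0 to 3 genes, 0 to 4 loci and 199 to 533 transcripts in all. The lowest counts of isoforms, snoRNA rows and loci came without P19N replicate 4 or 5, and the cause was not tested.

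Of the 2108 unique counts of the Snhg transcripts, 1952 belonged to Snhg17-209. In all unique counts the summed Snhg level was 1507 ± 681 CPM in UD-P19 and 666 ± 316 CPM in P19N (SD, n = 3 each). In isoforms that hold no snoRNA it was 9.87 CPM in UD-P19 and 19.1 CPM in P19N, from at most 20 counts per library. Scaling moved the median log2 fold change of all transcripts between 0.05 (DESeq2 size factors) and 0.34 (library totals), so that changes under about that size depend on it. Isoforms without a snoRNA fell below the minimum of 15 counts, and with a minimum of 5 counts edgeR's quasi-likelihood test called 0 of the 5 that passed (unadjusted p between 0.192 and 0.850, adjusted p between 0.412 and 0.941).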
